A study of Mus musculus with 32 samples.

Results

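Iron handling genes of the mouse kidney were followed through the first days after cisplatin. The set holds 10 genes, taken by name from the deposited gene count table of 54532 genes, and all 10 were found there. Their roles are iron uptake (Tfrc, Steap3 and Slc11a2), storage and its turnover (Fth1, Ftl1 and Ncoa4), export (Slc40a1 and Cp) and the sensing of iron in the cytosol (Aco1 and Ireb2). The names follow what the genes do, and no measured value entered the rule, but they were picked with earlier results of these data known.

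Whole kidneys of wild-type C57BL/6 mice, aged 6 to 8 weeks, were sequenced as bulk RNA in 8 groups of 4 mice, with 1 library per mouse. Both sexes were sampled before treatment (Day 0) and on Day 2, Day 3 and Day 5 following a single intraperitoneal injection of 20 mg/kg cisplatin, a platinum drug that injures the kidney tubule. Day 0 was taken as the untreated state, as the study describes it, although the labels give the Day 0 females a cisplatin treatment and the Day 0 males none. No vehicle-injected group at the later days was analysed here, so time after injection and cisplatin move together. The library totals ran from 16502107 to 35961325 counts, and the 10 genes had between 61 counts (Ncoa4, in 1 library) and 199082 counts (Fth1, in 1 library).

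Cells take up most iron bound to transferrin, through the transferrin receptor Tfrc. In the endosome the ferric iron is reduced by Steap3 and moved to the cytosol by Slc11a2 (DMT1). Iron that is not used is held in ferritin, a shell of heavy (Fth1) and light (Ftl1) chains, and the cargo receptor Ncoa4 carries ferritin to the lysosome, where the iron is set free. Ferroportin (Slc40a1) is the known iron exporter of animal cells, and ceruloplasmin (Cp) is a copper ferroxidase that oxidises the exported iron so that transferrin can bind it. When cytosolic iron is low, the iron regulatory proteins Aco1 (IRP1) and Ireb2 (IRP2) bind RNA hairpins called iron-responsive elements, which blocks the translation of ferritin and ferroportin mRNA and protects Tfrc mRNA from decay. The proximal tubule reabsorbs filtered iron and is the main site of cisplatin injury.

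The hairpin loops are shown because the 2 regulators act through them, and because RNA levels alone do not show the block of translation. The untranslated regions of GENCODE M21 transcripts (GRCm38) were searched for the letters CAGTGN with 5 bases on either side able to pair, counting G with T as a pair, and a C before the first of them. The sense strand only was searched. In each line below the hexaloop is in capitals and the pairing bases stand directly beside it.
Fth1, 5′ untranslated region, chr19:9982733-9982759, plus strand: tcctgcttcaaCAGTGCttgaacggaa
Ftl1, 5′ untranslated region, chr7:45459780-45459806, minus strand: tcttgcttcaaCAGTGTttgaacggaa
Slc40a1, 5′ untranslated region, chr1:45925466-45925492, minus strand: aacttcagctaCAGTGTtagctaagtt
Tfrc, 3′ untranslated region, chr16:32631220-32631246, plus strand: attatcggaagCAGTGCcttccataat
Tfrc, 3′ untranslated region, chr16:32631599-32631625, plus strand: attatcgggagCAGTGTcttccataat
Tfrc, 3′ untranslated region, chr16:32631664-32631690, plus strand: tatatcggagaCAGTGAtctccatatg
Tfrc, 3′ untranslated region, chr16:32631711-32631737, plus strand: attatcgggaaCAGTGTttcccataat
The 2 ferritin loops have the same pairing bases and differ in the last base of the hexaloop. Such a loop was found in the 5′ untranslated region of 28 of 20890 genes (0.134%) and in the 3′ untranslated region of 127 of 21004 genes (0.605%). The other 6 genes of the set had none in these windows. Among them is Slc11a2, of which some transcripts are known to carry an iron-responsive element in the 3′ untranslated region, so these letters do not find every known element. A match describes letters only.

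Several libraries stood apart from the rest of their group. The share of non-mitochondrial protein-coding counts that fell on genes shorter than 1500 bp, a measure of library composition, was 6.57 to 8.37% in the 16 Day 2 and Day 3 libraries but 9.37 to 20.4% in Day 0 males and 7.33 to 18.7% in Day 0 females. It was highest in male Day 0 mouse 3 (20.4%) and in female Day 0 mice 3 (18.7%), 2 (16.4%) and 1 (13.1%). Mitochondrial transcripts took 42.5 to 79.8% of counts in Day 5 males and 9.30 to 77.9% in Day 5 females, with 77.9% in female Day 5 mouse 2. Xist, the female-specific RNA of the inactive X chromosome, had 4153 counts in the library labelled male Day 5 mouse 1, beside 387 counts of Y-linked genes, against its label. The other male libraries had 59 to 260 Xist counts at Day 5, 0 to 242 at Day 0 and 0 to 5 at Day 2 and Day 3. The 4 libraries labelled female Day 0 also held 5 to 221 Y-linked counts, and the later female libraries 0. Hepatocyte markers summed to 9678 CPM (counts scaled to library size, with TMM factors) in female Day 0 mouse 2 against 151 to 427 CPM in the other Day 0 females. Kidney markers were present in all groups, and the summed proximal tubule markers (7 genes, which include the androgen-dependent Kap) were 12981 to 89003 CPM at Day 0, 5030.0 to 23988 CPM at Day 2 and Day 3 and 1388 to 9973 CPM at Day 5. Such a sum weights the most abundant markers most: the median log2 fold change of the 7 markers was -0.08 and -0.09 in males and -0.18 and -0.36 in females at Day 2 and Day 3, with none called lower, and -1.90 in males at Day 5.

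Per length of gene, the ferritin chains were by far the most abundant of the set. The deposited FPKM (fragments scaled by gene length and a factor per library that is not its total count) of Fth1 averaged 5925 ± 1731 in Day 0 males and 5469 ± 1776 in Day 0 females (SD, n = 4 mice in each, as for every mean below), and that of Ftl1 1870.3 ± 931 and 2518 ± 1078. Aco1 followed the ferritins in each of the 8 groups, at 60.1 ± 6.27 FPKM in Day 0 males and 48.0 ± 12.1 FPKM in Day 0 females. The other 7 genes lay between 1.30 FPKM (Steap3, male Day 3) and 14.3 FPKM (Slc11a2, male Day 3; Tfrc, male Day 0) on average. In the order of the means, 43 of 72 neighbouring pairs had overlapping ranges within their group. Both genes of a pair were measured in the same mice, so an overlap does not show that their levels were alike. Fth1 and Ftl1 of Day 0 females were such a pair, yet Fth1 was 1.85 to 2.86 times Ftl1 within each library. In Day 0 males the overlapping neighbours were Tfrc and Slc11a2, and then Ireb2, Slc40a1, Cp, Ncoa4 and Steap3 in that order. Ncoa4 was the lowest or next to lowest gene at Day 0 (2.35 ± 1.43 FPKM in males and 1.83 ± 2.43 FPKM in females) and ranked 4 to 6 of 10 at the later days.

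**Figure D1:**
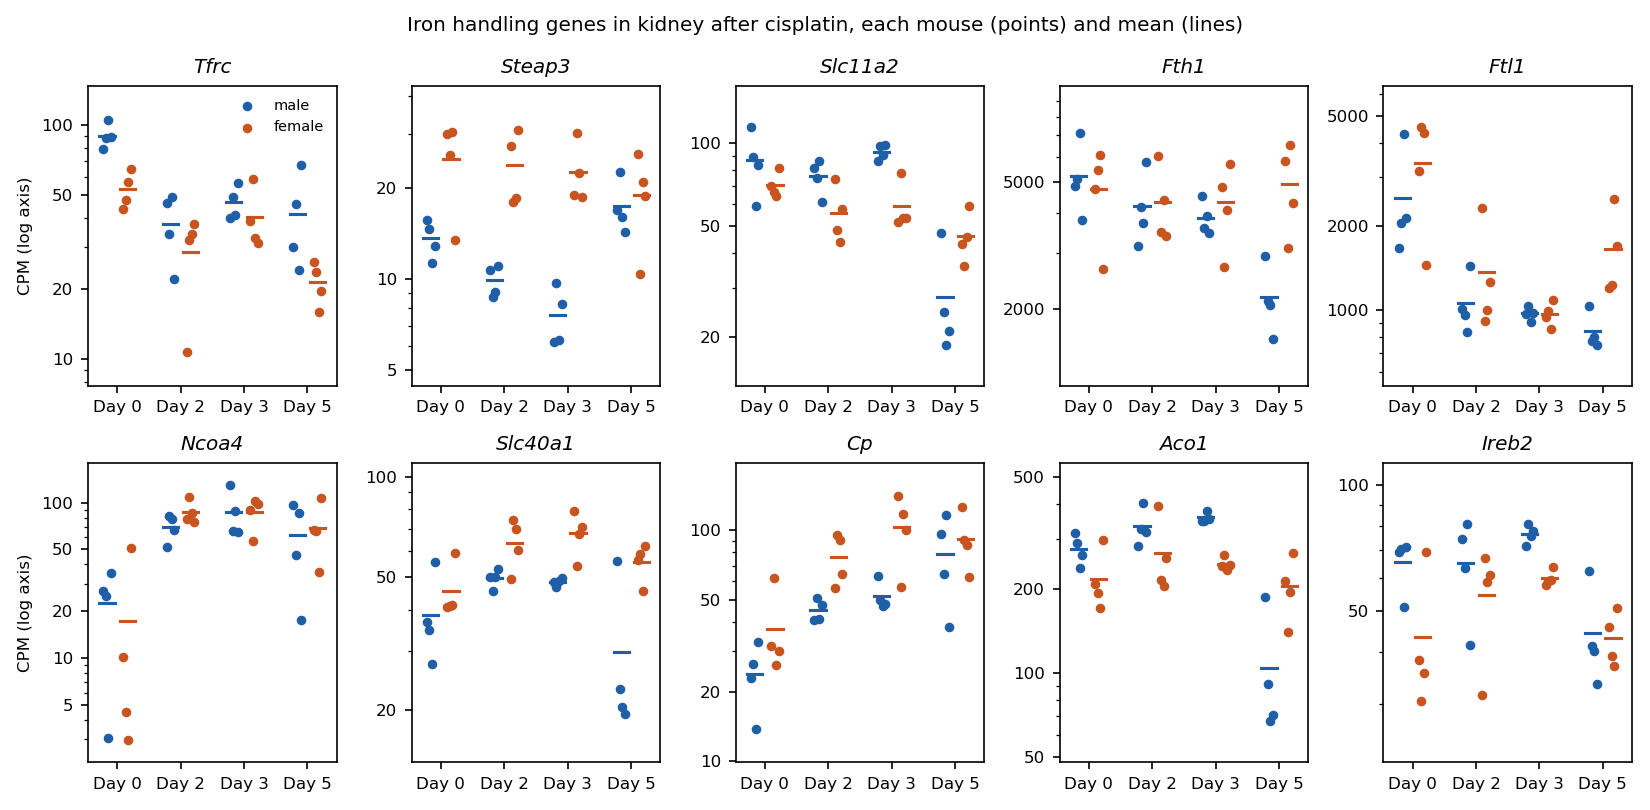
TMM-scaled CPM (vertical log axis) of the 10 iron handling genes at each day (horizontal axis), in males (blue) and females (orange), with points for mice and lines for the mean of 4. By group mean, Ftl1 and Tfrc sit highest and Cp lowest at Day 0, and the Ncoa4 points of Day 0 spread from 2.99 to 51.2 CPM.

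Each later day was compared with Day 0 of the same sex by edgeR's quasi-likelihood test, and a gene was called at a Benjamini-Hochberg adjusted p under 0.05 over all genes tested. The 3 comparisons within a sex share their Day 0 mice. In males 1 of the 10 genes was called at Day 2 (Tfrc, lower), against 3.16% of all genes tested. At Day 3 in males 5 were called (Cp and Ncoa4 higher, Ftl1, Steap3 and Tfrc lower) against 24.5% of all genes, and at Day 5 again 5 (Cp higher, Aco1, Ftl1, Slc11a2 and Tfrc lower) against 19.2%. In females none of the 10 was called at Day 2, against 1.93% of all genes, although 4 had an unadjusted p under 0.05, and DESeq2 called 2 and limma voom 7. Of all genes 25.3% had such an unadjusted p, and DESeq2 called 13% and limma voom 48.9%. Females had 2 calls at Day 3 (Cp higher, Ftl1 lower) against 5.54% of all genes, and 1 at Day 5 (Tfrc, lower) against 0.258%. A stricter rule, which also asks for an absolute log2 fold change over 1.5 and was applied here to the edgeR values, left Ncoa4 in males at Day 3 (3.72% of all genes), Cp, Ftl1 and Slc11a2 in males at Day 5 (7.53%) and Ftl1 in females at Day 3 (2.48%). It left none of the 10 in males at Day 2 (0.716%) and in females at Day 2 (1.41%) and Day 5 (0.228%). The CPM of 5, 7 and 6 of the 10 genes did not overlap Day 0 in males at Day 2, Day 3 and Day 5, against 24.4%, 38.3% and 27.3% of all genes. In females the groups did not overlap for 2, 2 and 3 genes, against 15.3%, 19.3% and 8.6%. The median log2 fold change of the 10 genes was -0.09, 0.17 and -0.77 in males at Day 2, Day 3 and Day 5 (all genes tested: 0.03, 0.02 and 0.04) and 0.11, 0.01 and -0.05 in females (all genes tested 0.03 at each day).

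**Figure D2:**
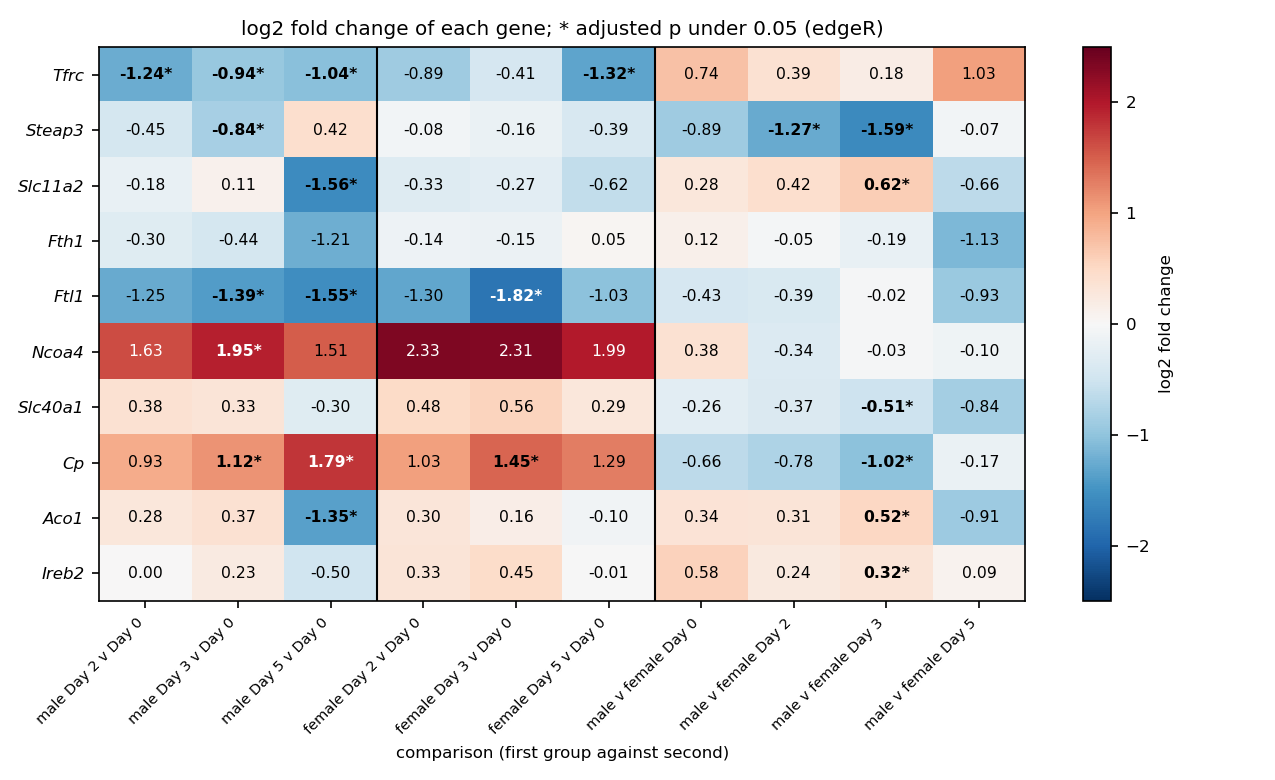
The log2 fold change of each gene (rows) in each comparison (columns), printed in the cell and coloured from blue (lower) to red (higher), with an asterisk where edgeR's adjusted p was under 0.05. Tfrc and Ftl1 were below 0 and Ncoa4 and Cp above 0 in all 6 comparisons with Day 0, of which 4, 3, 1 and 3 passed the test.

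Tfrc (ENSMUSG00000022797, chr16:32608920-32632794, plus strand, GRCm38), the receptor for transferrin, was the uptake gene with the most calls. Its CPM in Day 0 males was 78.7, 87.8, 105 and 88.6. The level was 46.2, 34.4, 49.0 and 22.0 CPM in males at Day 2, 40.2, 49.3, 41.4 and 56.4 at Day 3, and 30.1, 45.9, 24.0 and 67.2 at Day 5. No male at a later day reached the lowest Day 0 male. Tfrc fell in males by 1.24 (SE 0.25) on the log2 scale at Day 2 (adjusted p = 0.0408), by 0.94 (SE 0.15) at Day 3 (adjusted p = 0.00795) and by 1.04 (SE 0.31) at Day 5 (adjusted p = 0.0427). In females the CPM was 43.6, 47.8, 56.8 and 64.8 at Day 0 and 10.8, 32.4, 34.1 and 37.8 at Day 2. It was 38.9, 58.8, 32.9 and 31.4 at Day 3 and 26.1, 23.6, 15.9 and 19.5 at Day 5. The female groups were apart from Day 0 at Day 2 and Day 5 but not at Day 3, where mouse 2 lay within the Day 0 range. The fall at Day 5 in females was 1.32 on the log2 scale (SE 0.23, adjusted p = 0.0477), and the Day 2 and Day 3 values of -0.89 (SE 0.34, adjusted p = 0.138) and -0.41 (SE 0.23, adjusted p = 0.251) did not pass the test.

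The Day 3 fall of Tfrc in males was called whichever of the 8 mice was left out (log2 fold change from -1.04 to -0.86). The Day 2 call in males held without Day 0 mouse 3 or Day 0 mouse 4 and was lost without any other mouse (log2 fold change from -1.38 to -1.06, adjusted p up to 0.131), and was also lost with the short-gene share as a covariate (-1.11, adjusted p = 0.0839). At Day 5 the male call held without Day 5 mouse 4 and was lost without any other mouse (-1.38 to -0.86, adjusted p up to 0.105), among them mouse 1, without which it was -0.90 (adjusted p = 0.0677). The female Day 5 call held without Day 0 mouse 4 and was lost without any other mouse (-1.42 to -1.20, adjusted p up to 0.153). Red cell precursors express much Tfrc, and the summed erythroid markers (7 of 8 listed genes in the table, none at 0 in every library) moved with part of the pattern. They were 444 to 2691 CPM at Day 0, 18.7 to 221 CPM at Day 2 and Day 3, and 33.2 to 5575 CPM at Day 5. Another part went the other way. The median sum in males was 545 CPM at Day 0 and 1747 CPM at Day 5, where Tfrc was called lower. In Day 0 females, whose Tfrc was below that of Day 0 males, the median sum was 1119 CPM. The part of red cell precursors in the Tfrc values was not tested. In bulk RNA, fewer cells of a type and less RNA per cell cannot be told apart, here and for every gene below.

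Steap3 (ENSMUSG00000026389, chr1:120190757-120272705, minus strand), the endosomal ferric reductase, was called between the sexes at Day 2 and Day 3 and over time in males at Day 3. The CPM in males was 15.7, 14.6, 11.3 and 12.9 at Day 0, 10.7, 8.73, 9.07 and 11.1 at Day 2 and 6.21, 9.72, 6.30 and 8.28 at Day 3. At Day 5 it was 16.9, 22.6, 15.9 and 14.3. The Day 2 and Day 3 males lay below every Day 0 male. Steap3 fell in males at Day 3 by 0.84 on the log2 scale (SE 0.19, adjusted p = 0.019), and the male values at Day 2 (-0.45, SE 0.17, adjusted p = 0.122) and Day 5 (0.42, SE 0.20, adjusted p = 0.172) did not pass. The Day 3 call was lost without Day 3 mouse 1, 3 or 4 (log2 fold change from -0.97 to -0.74 over the 8 leave-outs, adjusted p up to 0.0705). In females Steap3 was 30.1, 25.6, 30.6 and 13.4 CPM at Day 0, and the later female groups overlapped it at 17.97 to 30.9, 18.7 to 30.3 and 10.3 to 25.8 CPM. No female comparison with Day 0 was called (log2 fold changes from -0.39 to -0.08).

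Slc11a2 (ENSMUSG00000023030, chr15:100387898-100425072, minus strand), the ferrous iron transporter of endosomes and apical membranes, was low in Day 5 males. The male CPM was 114, 88.8, 59.4 and 83.4 at Day 0 and 47.4, 24.6, 18.7 and 21.0 at Day 5, so that the groups did not overlap. The fall was 1.56 on the log2 scale (SE 0.32, adjusted p = 0.0138). It was called in 7 of 8 leave-outs, being lost without Day 5 mouse 2 (adjusted p = 0.0528), and was -1.93 (adjusted p = 0.00105) without the library labelled male Day 5 mouse 1. Males at Day 2 (61.1 to 85.7 CPM) and Day 3 (85.9 to 98.4 CPM) overlapped Day 0. Females went from 70.2, 66.5, 64.2 and 81.2 CPM at Day 0 to 43.2, 36.0, 45.9 and 59.4 CPM at Day 5, which did not overlap, but the log2 fold change of -0.62 (SE 0.20) had an adjusted p of 0.214. In Day 5 males the summed proximal tubule markers were 8536 CPM in mouse 1 and 1388 to 5522 CPM in the other 3, against 20602 to 89003 CPM at Day 0, and their part in the Slc11a2 values was not tested.

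Ftl1 (ENSMUSG00000050708, chr7:45457944-45459884, minus strand), the ferritin light chain, was the most regular of the storage genes. The male CPM was 1664, 2052, 4295 and 2139.8 at Day 0 and 1009.6, 962, 831 and 1436 at Day 2. At Day 3 it was 970, 1035, 903 and 977, and at Day 5 it was 1029, 771, 799 and 746. Every later male lay below every Day 0 male. Ftl1 fell in males by 1.39 (SE 0.30, adjusted p = 0.0173) on the log2 scale at Day 3 and by 1.55 (SE 0.40, adjusted p = 0.027) at Day 5, and was at -1.25 (SE 0.33, adjusted p = 0.0643) at Day 2. The female CPM was 3170.3, 4567, 4330.0 and 1448 at Day 0 and 2323, 910, 1000.2 and 1261 at Day 2. At Day 3 it was 940.0, 988, 852 and 1082, and at Day 5 it was 1203, 1227, 2504 and 1693. Day 3 was the female group that did not overlap Day 0. Ftl1 fell in females at Day 3 by 1.82 on the log2 scale (SE 0.36, adjusted p = 0.0465), with -1.30 (SE 0.46, adjusted p = 0.115) at Day 2 and -1.03 (SE 0.44, adjusted p = 0.293) at Day 5. Summed macrophage markers were 154 to 263 CPM at Day 0, 108 to 137 at Day 3 and 103 to 327 at Day 5 in males. In females they were 135 to 273 CPM at Day 0 and 116 to 132 at Day 3. Of 6 erythroid markers tested, 5 were called lower at Day 3 in each sex. The part of these cell types in the Ftl1 values was not tested.

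The high Ftl1 values of Day 0 came with the libraries of high short-gene share. Over the 8 Day 0 libraries the correlation of log2 CPM with that share was 0.921, and over all 32 libraries 0.736, a description over points that share groups. Ftl1 is itself a short gene in the table (1340 bp) and is counted in the share. Without female Day 0 mice 1 to 3, which left mouse 4 as the lone Day 0 female, assumed to vary like the other groups, the female Day 3 value was -0.59 (adjusted p = 0.236) and the Day 5 value turned to 0.16. With the share as a covariate it was -0.74 in females (adjusted p = 0.253) and -0.69 in males (adjusted p = 0.0185) at Day 3. Both settings were chosen after seeing the data. The male Day 3 call was lost without any 1 of the Day 3 mice (log2 fold change from -1.57 to -1.01, adjusted p up to 0.0656) and the male Day 5 call without Day 0 mouse 2 or Day 5 mouse 2, 3 or 4 (-1.71 to -1.15, adjusted p up to 0.0859). In females the Day 3 call held without Day 0 mouse 4 and was lost without any other mouse (-2.07 to -1.64, adjusted p up to 0.168). Ftl1-ps1, a near copy, held at most 2.11% as many counts as Ftl1 in a library, and reads of such copies could be split between them.

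**Figure D3:**
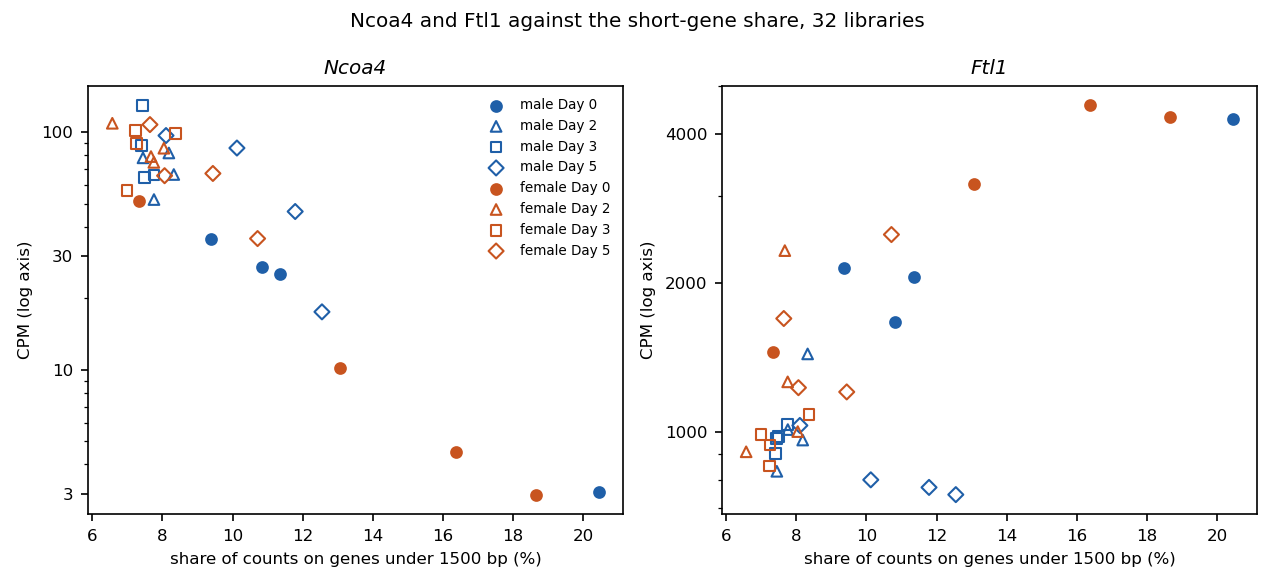
CPM (vertical log axis) of Ncoa4 (left) and Ftl1 (right) in 32 libraries against the percentage of counts on genes under 1500 bp (horizontal axis), with Day 0 filled and later days open. The 4 libraries with the highest share, all of Day 0, hold the 4 lowest Ncoa4 values (2.99 to 10.1 CPM) and the 4 highest Ftl1 values (3170.3 to 4567 CPM).

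Fth1 (ENSMUSG00000024661, chr19:9982703-9985092, plus strand), the heavy chain that carries the ferroxidase site of ferritin, was called at no day. The CPM was 4858, 5088, 7139 and 3787 in males at Day 0 and 2922, 2116, 2058 and 1601 at Day 5, and these did not overlap. The log2 fold change of -1.21 (SE 0.39) had an adjusted p of 0.0537, and without the library labelled male Day 5 mouse 1 it was -1.36 (adjusted p = 0.0212). At Day 2 (3136 to 5769.6 CPM) and Day 3 (3450.0 to 4516 CPM) males overlapped Day 0. Females ranged from 2672 to 6534 CPM over all 4 days, with log2 fold changes of -0.14 (SE 0.38), -0.15 (SE 0.34) and 0.05 (SE 0.42).

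The ratio of the ferritin chains was computed within each library from the deposited FPKM and is given without a test. Fth1 to Ftl1 was 4.52, 3.84, 2.57 and 2.74 in Day 0 males and 2.32, 1.85, 2.17 and 2.86 in Day 0 females. At Day 2 it was 4.81, 6.71, 6.93 and 6.22 in males and 4.01, 5.92, 6.78 and 4.15 in females. At Day 3 it was 7.21, 5.34, 6.68 and 5.47 in males and 7.90, 4.23, 7.44 and 8.11 in females. Every Day 2 and Day 3 mouse had a higher ratio than every Day 0 mouse of its sex. At Day 5 the male ratios were 4.39, 4.25, 3.99 and 3.32, inside the Day 0 male range, and the female ratios were 7.49, 3.899, 4.04 and 3.92, above the Day 0 female range. Both chains are short genes (866 bp and 1340 bp). The correlations of log2 CPM of Fth1 and Ftl1 with the short-gene share were 0.901 and 0.921 over the 8 Day 0 libraries. Over all 32 libraries they were 0.306 and 0.736, so across the days the 2 chains did not follow the share alike. The part of the share in the ratio was not tested.

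**Figure D4:**
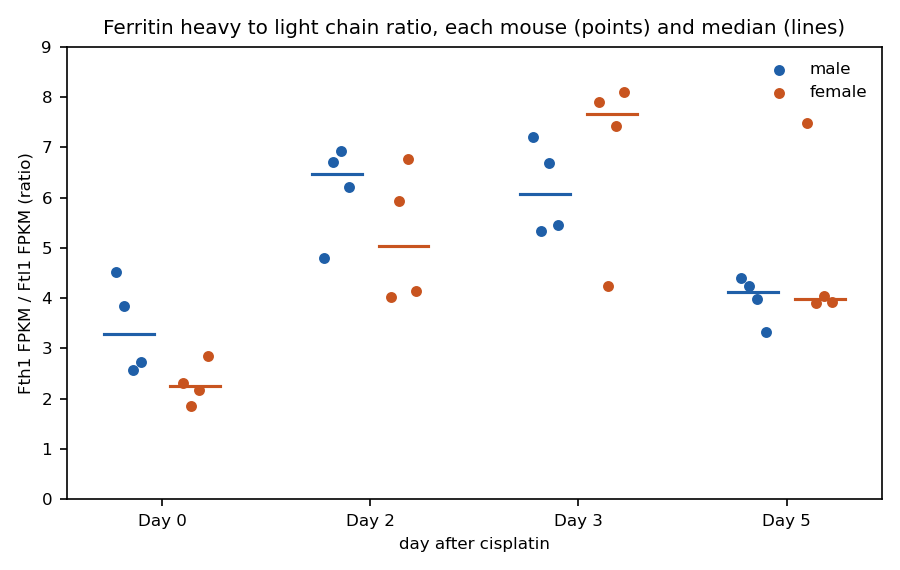
Ratio of Fth1 FPKM to Ftl1 FPKM (vertical axis, from 0) in each mouse (points) at each day, males in blue and females in orange, with lines at the median of 4. The median went from 3.29 at Day 0 to 6.46, 6.07 and 4.12 in males and from 2.25 to 5.04, 7.67 and 3.98 in females.

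Ncoa4 (ENSMUSG00000056234, chr14:32159865-32179855, plus strand), the receptor of ferritin autophagy, had the largest log2 fold changes of the set at Day 2 and Day 3. The Day 0 CPM was 27.1, 25.2, 3.06 and 35.5 in males and 10.1, 4.51, 2.99 and 51.2 in females. It was 52.0, 81.7, 77.9 and 66.3 in males and 78.9, 109, 85.5 and 74.6 in females at Day 2. At Day 3 it was 129, 66.1, 87.7 and 64.6 in males and 89.5, 56.9, 102 and 98.6 in females. Neither sex overlapped its Day 0 group at Day 2 or Day 3, whereas at Day 5 males (17.5 to 96.7 CPM) and females (35.7 to 107 CPM) did. Ncoa4 rose in males at Day 3 by a log2 fold change of 1.95 (SE 0.60, adjusted p = 0.0458). The other values were 1.63 (SE 0.56, adjusted p = 0.102) and 1.51 (SE 0.67, adjusted p = 0.137) in males at Day 2 and Day 5, and 2.33 (SE 0.80, adjusted p = 0.116), 2.31 (SE 0.81, adjusted p = 0.0972) and 1.99 (SE 0.86, adjusted p = 0.312) in females.

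Ncoa4 followed library composition more closely than any other member. The correlation of its log2 CPM with the short-gene share was -0.946 over 32 libraries and -0.980 over the 8 Day 0 libraries, again a description. The gene is long in the table (9365 bp). The 4 libraries under 11 CPM were the 4 of highest share, and in the other 4 Day 0 libraries Ncoa4 was at 25.2 to 51.2 CPM. With the share as a covariate the male Day 3 value was 0.62 (adjusted p = 0.158). Without male Day 0 mouse 3 it was 1.57 (adjusted p = 0.00371). The call was lost in 6 of 8 leave-outs, all but those of Day 0 mouse 3 and Day 0 mouse 4 (1.57 to 2.26, adjusted p up to 0.117), and also with no filter on low counts (1.96, adjusted p = 0.0953).

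Slc40a1 (ENSMUSG00000025993, chr1:45908068-45926523, minus strand), the exporter ferroportin, was not called against Day 0 at any day. The male CPM was 36.7, 34.9, 27.4 and 55.5 at Day 0 and 48.5, 46.9, 48.8 and 49.98 at Day 3. At Day 5 it was 56.2 in mouse 1 and 23.2, 20.5 and 19.5 in the other 3 males. Mouse 1 is the library whose Xist counts go against its label, and the Day 5 log2 fold change was -0.30 with it (SE 0.36, adjusted p = 0.573) and -0.80 without it (adjusted p = 0.0475). Females had 40.9, 40.9, 41.2 and 59.2 CPM at Day 0 and 79.1, 54.1, 67.4 and 71.1 CPM at Day 3, with a log2 fold change of 0.56 (SE 0.19, adjusted p = 0.0881).

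Cp (ENSMUSG00000003617, chr3:19957054-20009145, plus strand), the ferroxidase ceruloplasmin, was the gene with the clearest rise. Its CPM in males was 22.9, 26.3, 13.9 and 32.7 at Day 0, 40.8, 50.8, 41.2 and 47.6 at Day 2 and 63.2, 49.9, 46.9 and 48.0 at Day 3. At Day 5 it was 95.9, 64.3, 117 and 38.0. No later male fell within the Day 0 range. Cp rose in males by log2 fold changes of 1.12 (SE 0.24, adjusted p = 0.0171) at Day 3 and 1.79 (SE 0.37, adjusted p = 0.014) at Day 5, and was at 0.93 (SE 0.24, adjusted p = 0.0602) at Day 2. The female CPM was 31.4, 62.0, 25.997 and 30.1 at Day 0 and 55.9, 94.9, 90.8 and 64.7 at Day 2. It was 139.8, 56.8, 117 and 99.9 at Day 3 and 126, 90.8, 86.4 and 62.4 at Day 5. The lowest female of Day 2 and of Day 3 lay under the Day 0 value of mouse 2. Cp rose in females at Day 3 by 1.45 (SE 0.35, adjusted p = 0.049), with 1.03 (SE 0.31, adjusted p = 0.0812) at Day 2 and 1.29 (SE 0.32, adjusted p = 0.137) at Day 5.

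The Day 0 female with 62.0 CPM of Cp, mouse 2, was the library with hepatocyte markers at 9678 CPM. Hamp (hepcidin) was at 175 CPM there against 0 to 2.89 CPM in the other Day 0 females, and Trf (transferrin) at 323 CPM against 6.79 to 41.8 CPM. The part of hepatocyte RNA in the Cp value was not tested. Without that mouse the female Cp values were 1.42 at Day 2 (adjusted p = 0.0884), 1.81 at Day 3 (adjusted p = 0.137) and 1.65 at Day 5 (adjusted p = 0.0583), each larger than with it. The female Day 3 call was also lost without Day 0 mouse 1 or 3 or Day 3 mouse 1, 3 or 4 (log2 fold change from 1.28 to 1.81, adjusted p up to 0.168). In males the Day 5 rise was called in all 8 leave-outs (1.52 to 2.01) and the Day 3 rise was lost without Day 3 mouse 1, 2 or 3 (0.93 to 1.31, adjusted p up to 0.0558). With the short-gene share as a covariate the male Day 3 and Day 5 values were 0.64 (adjusted p = 0.0265) and 1.52 (adjusted p = 0.013), and the female Day 3 call was lost (1.70, adjusted p = 0.298). The female Day 3 call was also lost with DESeq2 size factors. In the male Day 5 comparison, 3 of 3 tested markers of neutrophils and 3 of 4 of adrenal cortex were called higher. So were 2 of 3 of collecting duct, 2 of 4 of endothelium and 1 of 6 erythroid ones. Markers called lower included 3 of 7 of proximal tubule and 1 of 5 of hepatocytes. The part of these cell types in the Cp values was not tested. Cp overlaps Hps3 on the opposite strand over 13201 bp, and since the strand setting of the counting is not given in the sources used here, reads of the 2 genes cannot be told apart in that stretch.

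Aco1 (ENSMUSG00000028405, chr4:40143081-40198338, plus strand), the cytosolic aconitase that doubles as an iron regulatory protein, was low in Day 5 males. The male CPM was 316, 291, 236 and 263 at Day 0 and 187, 91.6, 67.2 and 71.0 at Day 5. All 4 Day 5 males lay below all Day 0 males. The fall was 1.35 on the log2 scale (SE 0.34, adjusted p = 0.0251), and without the library labelled male Day 5 mouse 1 it was -1.77 (adjusted p = 0.00093). The call was lost without Day 0 mouse 1 or 2 or Day 5 mouse 2, 3 or 4 (-1.77 to -1.20 over the 8 leave-outs, adjusted p up to 0.0818). At Day 3 males had 349, 349.5, 379 and 355 CPM, above every Day 0 male, at a log2 fold change of 0.37 (SE 0.13, adjusted p = 0.0597). Females were at 207, 193, 171 and 297 CPM at Day 0 and 212, 140.1, 195 and 268 CPM at Day 5, which overlapped (log2 fold change -0.10, SE 0.27, adjusted p = 0.879). The sums of proximal tubule markers given with Slc11a2 hold for these mice too, and their part was not tested.

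Ireb2 (ENSMUSG00000032293, chr9:54863789-54912530, plus strand), the regulatory protein that is degraded when iron is ample, was not called against Day 0 in either sex. The male CPM was 69.5, 70.4, 51.2 and 71.1 at Day 0, 71.7, 81.0, 75.7 and 77.9 at Day 3 and 62.5, 41.4, 40.1 and 33.5 at Day 5. The Day 5 log2 fold change was -0.50 (SE 0.21, adjusted p = 0.126), and -0.69 (adjusted p = 0.0233) without mouse 1 of that group. Female levels were 30.5 to 69.2 CPM at Day 0 and 31.5 to 67.2, 57.8 to 63.8 and 37.1 to 50.9 CPM at the later days, with log2 fold changes from -0.01 to 0.45.

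Males and females were compared on each day to ask whether iron handling differs between the sexes. At Day 0 none of the 10 genes was called by edgeR, against 0.449% of all genes, with 2 at an unadjusted p under 0.05 (Tfrc and Steap3), 1 called by DESeq2 and 7 by limma voom (of all genes 8.04%, 2.71% and 24.4%). Tfrc was higher in each Day 0 male than in any Day 0 female, at a log2 difference of 0.74 (SE 0.19, adjusted p = 0.209). At Day 2 the call was Steap3 alone, against 1.47% of all genes, lower in males by a log2 difference of -1.27 (SE 0.20, adjusted p = 0.0106). Its levels there were 8.73 to 11.1 CPM in males and 17.97 to 30.9 CPM in females, and the call was lost without male Day 2 mouse 3 (adjusted p = 0.0511). At Day 5 none was called, against 0.276% of all genes, with 6 at an unadjusted p under 0.05, 3 by DESeq2 and 6 by limma voom (of all genes 20.3%, 6.97% and 23.3%). Without the library labelled male Day 5 mouse 1 there were 4 calls at Day 5, against 17% of all genes in that fit, with Aco1 (-1.29, adjusted p = 0.00408), Slc11a2 (-0.99, adjusted p = 0.00713) and Slc40a1 (-1.29, adjusted p = 0.00108) lower and Tfrc (1.23, adjusted p = 0.017) higher in males. Between all 4 males and 4 females of Day 5, summed adrenal cortex markers were 23.6 to 118 CPM in males and 399.7 to 1012 CPM in females (3 of 4 called lower in males). Neutrophil markers were 9.84 to 209 CPM in males and 1.84 to 7.78 CPM in females, and collecting duct, adipocyte and erythroid sums had higher medians but overlapping ranges in males. Hepatocyte markers were 20.3 to 110 CPM in males and 118 to 160.1 CPM in females, and proximal tubule markers 8536 CPM in male mouse 1 and 1388 to 5522 CPM in the other males against 4476 to 9973 CPM in females. The part of these cell types in the Day 5 values was not tested.

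At Day 3 edgeR called 6 of the 10 genes between the sexes, against 21.3% of all genes. Steap3 was at 6.21 to 9.72 CPM in males and 18.7 to 30.3 CPM in females, a log2 difference of -1.59 (SE 0.20, adjusted p = 0.00136). Slc40a1 was at 46.9 to 49.98 CPM in males and 54.1 to 79.1 CPM in females (-0.51, SE 0.10, adjusted p = 0.00887). Cp was at 46.9 to 63.2 CPM in males and 56.8 to 139.8 CPM in females, which overlapped (-1.02, SE 0.25, adjusted p = 0.0246). The reductase and both export genes were thus lower in males. Slc11a2 was higher in males at 85.9 to 98.4 CPM against 52.1 to 78.1 CPM (0.62, SE 0.13, adjusted p = 0.0109). Both regulators were also higher in males, Aco1 at 349 to 379 CPM against 232 to 264 CPM (0.52, SE 0.07, adjusted p = 0.00194) and Ireb2 at 71.7 to 81.0 CPM against 57.8 to 63.8 CPM (0.32, SE 0.06, adjusted p = 0.00789). Tfrc, Fth1, Ftl1 and Ncoa4 overlapped between the sexes at Day 3, with log2 differences from -0.19 to 0.18.

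The Day 3 sex differences of Aco1, Ireb2, Slc11a2, Slc40a1 and Steap3 were called in all 8 leave-outs, and that of Cp in 3 of 8 (log2 difference from -1.22 to -0.84, adjusted p up to 0.0723), being lost without male mouse 2, 3 or 4 or female mouse 1 or 3. The Cp call was also lost with no filter on low counts (-1.04, adjusted p = 0.0798). All 6 were called with the short-gene share as a covariate. The Day 3 groups of both sexes were the tightest of the series for Aco1 and Ireb2 (SD 14.1 and 3.9 CPM in males, 13.6 and 2.64 CPM in females), and a fit over all 8 groups, whose spread is shared with the more variable days, called Steap3 alone at Day 3. Summed adrenal cortex markers differed among the Day 3 females, at 22.5, 19.3, 1269 and 1571 CPM in mice 1 to 4, against 3.49 to 42.6 CPM in Day 3 males. Summed proximal tubule markers were 15459 to 23988 CPM in Day 3 males and 5030.0 to 13082 CPM in Day 3 females (4 of 7 called higher in males), and injured tubule markers 480 to 1208 CPM and 1151 to 5012 CPM (3 of 4 called lower). Of the other kidney markers, 2 of 4 of the thick limb and distal tubule and 2 of 3 of the collecting duct were called lower, and 4 of 4 endothelial ones higher, in males. Adipocyte markers were 149 to 204 CPM in Day 3 males and 264 to 492 CPM in Day 3 females (2 of 4 called lower in males). Of 5 hepatocyte markers tested, 2 were called higher and 2 lower in males. The part of these cell types in the Day 3 sex differences was not tested.

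The CPM of the sexes did not overlap for 1, 2, 5 and 2 of the 10 genes on the 4 days in order, against 6.17%, 8.96%, 25.7% and 8.85% of all genes. The stricter rule left Steap3 at Day 3 (1.93% of all genes) and none at Day 0 (0.362%), Day 2 (0.813%) or Day 5 (0.236%).

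The sex difference in the change from Day 0 was tested directly as an interaction. None of the 10 genes was called by edgeR at Day 2 (0% of all genes), Day 3 (0.0114%) or Day 5 (0.243%). At an unadjusted p under 0.05 there were 0, 0 and 3 genes, DESeq2 called 0, 0 and 0, and limma voom with sample quality weights called 2, 3 and 6. Of all genes 4.23%, 7.11% and 15.2% had such an unadjusted p. DESeq2 called 0.109%, 0.432% and 3.96% of them, and limma voom 9.35%, 11.6% and 29.3%. The Day 5 values of lowest p were those of Aco1 (-1.28, SE 0.44, adjusted p = 0.181), Slc11a2 (-0.97, SE 0.38, adjusted p = 0.239) and Fth1 (-1.28, SE 0.54, adjusted p = 0.272), the male change minus the female change. Without the library labelled male Day 5 mouse 1, edgeR called Aco1 (-1.71, adjusted p = 0.00834), Slc11a2 (-1.35, adjusted p = 0.0158) and Slc40a1 (-1.11, adjusted p = 0.0461) at Day 5, and the share of all genes called rose to 6.74%. That library had 42.5% mitochondrial counts, while the other 3 Day 5 males had 78.9 to 79.8%. Of the Day 5 females, 3 had 9.30 to 31.6% and mouse 2 had 77.9%. In that female Slc40a1 was at 58.9 CPM, Aco1 at 140.1 CPM and Slc11a2 at 36.0 CPM, against 19.5 to 23.2, 67.2 to 91.6 and 18.7 to 24.6 CPM in the 3 males of like share. This is 1 female library, whose Aco1 and Slc11a2 values were the lowest of the Day 5 females, while its Slc40a1 value was not. The part of the mitochondrial share in the Day 5 sex differences was not tested.

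**Figure D5:**
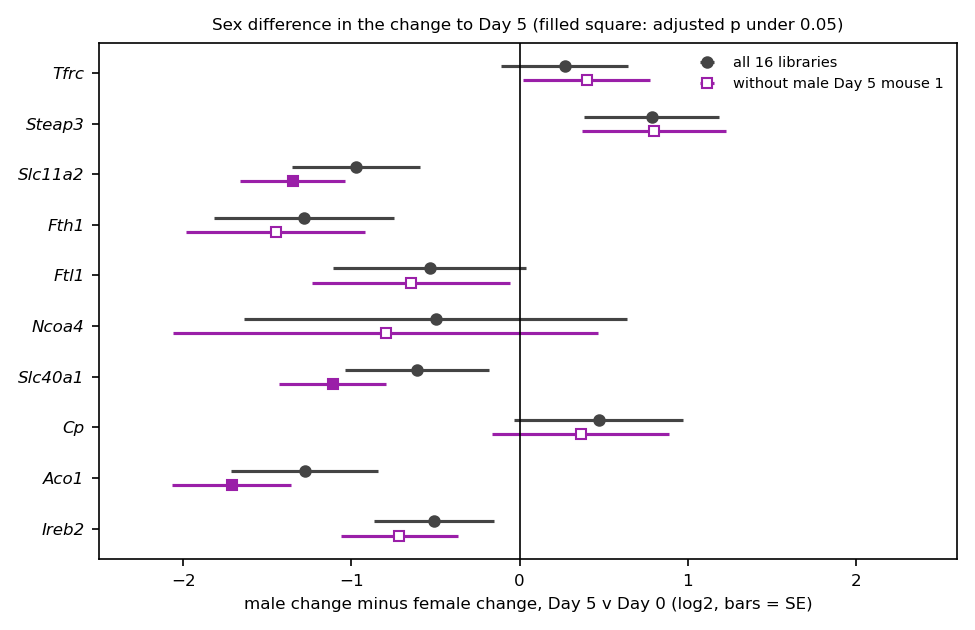
Male change minus female change from Day 0 to Day 5 on the log2 scale (horizontal axis, bars are SE) for each gene, with all 16 libraries (grey) and without male Day 5 mouse 1 (purple, filled where edgeR's adjusted p was under 0.05). Slc11a2, Slc40a1 and Aco1 are the 3 filled squares, at -1.35, -1.11 and -1.71.

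A wider list of 51 iron genes, all in the table and 46 of them tested in at least 1 comparison, was read beside the set. Its calls against Day 0 numbered 2 of 43 tested (both lower), 14 of 43 (5 higher, 9 lower) and 13 of 42 (2 higher, 11 lower) in males at Day 2, Day 3 and Day 5, against 3.16%, 24.5% and 19.2% of all genes. In females they numbered 1 of 45 (higher), 6 of 46 (2 higher, 4 lower) and 0 of 45, against 1.93%, 5.54% and 0.258% of all genes, the last with 14 at an unadjusted p under 0.05, 6 by DESeq2 and 10 by limma voom (of all genes 15.7%, 4.56% and 17.5%). The median log2 fold change of the list was -0.11, -0.01 and -0.29 in males at Day 2, Day 3 and Day 5 (all genes tested: 0.03, 0.02 and 0.04). Between the sexes 13 of 45 were called at Day 3 (6 higher, 7 lower in males), 2 of 44 at Day 2 (both lower in males) and 0 of 45 and 0 of 44 at Day 0 and Day 5 (8 and 15 at an unadjusted p under 0.05, 2 and 4 by DESeq2, 11 and 16 by limma voom). The shares of all genes were 21.3% at Day 3, 1.47% at Day 2, and 0.449% and 0.276% at Day 0 and Day 5, where 8.04% and 20.3% had such an unadjusted p, DESeq2 called 2.71% and 6.97%, and limma voom called 24.4% and 23.3%.

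The list of mitochondrial iron genes, mostly of iron-sulfur clusters and with a few of iron import and heme synthesis, gave 7 of the 9 falls of the wider list in males at Day 3 and 9 of 11 at Day 5. Of 13 tested, 7 fell and 1 rose in males at Day 3 (24.5% of all genes called), 9 fell at Day 5 (19.2%) and 3 fell in females at Day 3 (5.54%). In males at Day 2 the calls were Lyrm4 and Iscu (3.16% of all genes called). None of these genes was called in females at Day 2 (1.93%) or Day 5 (0.258%). In the same male Day 5 comparison 3 of 7 proximal tubule markers were called lower (median log2 fold change of the list -1.90), and mitochondrial transcripts took 42.5 to 79.8% of the Day 5 male counts; their part was not tested. Lyrm4 (ISD11, partner of the cysteine desulfurase) fell in males by 1.15, 1.09 and 1.75 at Day 2, Day 3 and Day 5 (adjusted p = 0.0402, 0.0122 and 0.0092) and in females at Day 3 by 0.91 (adjusted p = 0.0467). Iscu, the cluster scaffold, fell in males at Day 2 by 0.62 (adjusted p = 0.046) and at Day 3 by 0.64 (adjusted p = 0.00819). Abcb8, Cisd1, Cisd2 and Glrx5 each fell in males at Day 3 and Day 5. Their log2 fold changes were -0.43 and -0.77, -0.96 and -1.496, -0.48 and -0.87, and -0.77 and -0.98 in that order. With the short-gene share as a covariate the Day 3 values of Cisd1 and Glrx5 were -0.31 and -0.41, still called, while the calls of Cisd2 at Day 3 (-0.23, adjusted p = 0.218) and of Lyrm4 at Day 2 in males (-0.74, adjusted p = 0.0785) were lost.

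Outside that group, Lcn2 (lipocalin 2, which binds siderophore iron and is a kidney injury marker) rose most. It was at 1.41 to 4.94 CPM in Day 0 males and 8.55 to 169 CPM in Day 5 males, a log2 fold change of 4.19 (SE 0.95, adjusted p = 0.0185), and it rose by 3.53 in males (adjusted p = 0.0155) and 4.40 in females (adjusted p = 0.0465) at Day 3. The male Day 3 call was lost with the short-gene share as a covariate (adjusted p = 0.0809). Neutrophils also express Lcn2, and their summed markers (5 genes, Mpo at 0 in every library) were 1.36 to 1.90 CPM in Day 0 males and 9.84 to 209 CPM in Day 5 males, with 3 of 3 tested called higher at Day 5 and 0 of 3 at Day 3. The sums of 1.98 to 4.50 CPM in Day 3 males nevertheless lay above every Day 0 male. Their part in the Lcn2 values was not tested. Bdh2, an enzyme of the mammalian siderophore, fell in males at Day 5 by 2.43 (adjusted p = 0.0131) and in females at Day 3 by 1.48 (adjusted p = 0.0465). Slc39a14 (ZIP14), a transporter of iron that is not bound to transferrin, rose in females at Day 2 by 1.07 (adjusted p = 0.0416) and at Day 3 by 1.01 (adjusted p = 0.0465), with 0.55 in males at both days (adjusted p = 0.13 and 0.0601). Between the sexes, Steap1 and Tmprss6 (matriptase-2, an inhibitor of hepcidin expression in liver) were lower in males at Day 2 (-1.20 and -4.37) and Day 3 (-1.47 and -4.13). With the short-gene share as a covariate the Steap1 call at Day 2 was lost (adjusted p = 0.0823). The Slc39a14 call in females at Day 2 was lost too (adjusted p = 0.161). Of the 31 calls of the 12 wider-list genes that met the rule for naming, 20 held with the short-gene share as a covariate, and the 11 lost ones included all 6 of females at Day 3. Of 248 values of these calls with 1 mouse left out, 112 lost the call, as did 20 of the 31 calls with the replicate block and 7 of 7 without female Day 0 mice 1 to 3.

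Over the 32 libraries, with the mean of each sex removed, the closest pairs within the set by log2 CPM were Aco1 and Slc11a2 (Pearson r = 0.917), Ireb2 and Slc40a1 (0.753) and Cp and Ncoa4 (0.712), and the most opposed was Ftl1 and Ncoa4 (-0.821). Tfrc ran against Cp (-0.608). These are descriptions over libraries that share days and composition. Among 18220 genes the nearest were Bsnd for Steap3 (0.755), Ptprk for Slc11a2 (0.955), Prdx6 for Fth1 (0.948), Ftl1-ps1 for Ftl1 (0.976) and Rev1 for Ncoa4 (0.961). For the export and regulatory genes they were Tor1aip2 for Slc40a1 (0.902), Eda2r for Cp (0.880), Vil1 for Aco1 (0.971) and Edem3 for Ireb2 (0.949). Behind Bsnd, Steap3 was nearest to Rhcg (0.722) and Kcnq1 (0.722), and behind Eda2r, Cp to Abcb1b (0.876) and Zfp365 (0.872).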

How the data were processed

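Kidney RNA was sequenced as paired 150 bp reads. Gene-level counts, not normalized, and FPKM were deposited by the authors for 32 libraries; the FPKM equal counts per kb over 1 factor per library. The paper names GRCm38, the submitters' processing notes GRCm39, HTSeq and DESeq2; 98.3% of 54409 shared genes had GRCm38 coordinates (GENCODE M21), which were used. Aligner and strandedness are not given in the sources used here. For 13 comparisons, each on the groups compared, edgeR 4.0.16 (R 4.3.3) fitted the counts by robust quasi-likelihood after filterByExpr and TMM scaling. DESeq2 1.42.0 and limma 3.58.1 were alternatives. In simulated counts for male Day 3 versus Day 0 (15577 genes), edgeR recovered 86 of 100 genes changed by 2 on the log2 scale and 32 of 100 changed by 1. 3 counts in a library came to at most 0.483 CPM. Figures used matplotlib 3.10.9.

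The members and lists were chosen with earlier results of these data known. Genes named were the 10 members, wider-list genes called in at least 2 of the 6 comparisons with Day 0 or between the sexes on at least 2 days, and the genes most correlated with each member. Some genes that met this rule are not reported here. Hamp, Trf and Hps3 were named after their values were seen. Alternatives were another scaling, filter, tool or call rule, 1 fit over 8 groups, a replicate block, no mitochondrial genes, leaving out mice, and the short-gene share as a covariate. Same-numbered mice were separate animals.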

Additional observations from a re-analysis of the deposited data

Results flagged for a closer look

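Within the 80 sets of 4 mice (10 genes in 8 groups), 6 held a mouse far from the other 3 by Dixon's 95% criterion, where chance alone flags about 1 in 20. Slc11a2 was at 78.1 CPM in female Day 3 mouse 2 against 52.1 to 53.5 CPM in the others. Ncoa4 was at 51.2 CPM in female Day 0 mouse 4 against 2.99 to 10.1 CPM, and Slc40a1 in the same mouse at 59.2 CPM against 40.9 to 41.2 CPM. Slc40a1 was at 56.2 CPM in the library labelled male Day 5 mouse 1 against 19.5 to 23.2 CPM. Cp was at 62.0 CPM in female Day 0 mouse 2 against 25.997 to 31.4 CPM, and Ireb2 at 51.2 CPM in male Day 0 mouse 3 against 69.5 to 71.1 CPM. Female Day 0 mouse 4 had the lowest short-gene share of the Day 0 females (7.33%) and male Day 0 mouse 3 the highest of all libraries (20.4%), and the part of library composition in these values was not tested.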

How the results depend on the processing

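The 21 called member values kept their sign under every alternative run. Among the 109 uncalled ones the sign changed for 15 with the short-gene covariate and 6 under limma voom, for 27 of 67 without female Day 0 mice 1 to 3, and in 60 of 1112 values with 1 mouse left out. Counts of members called moved by over 1.5 times as follows. limma voom with sample quality weights called 7, 6 and 5 in females and 7, 9 and 8 in males at Day 2, Day 3 and Day 5, 7, 5 and 6 between the sexes at Day 0, Day 2 and Day 5, and 2, 3 and 6 interactions, where it called 9.35 to 55.5% of all genes. DESeq2 called 2, 4 and 2 in females, 4 in males at Day 2, and 1, 2 and 3 between the sexes at Day 0, Day 2 and Day 5. Of all genes it called 13%, 21.3% and 4.56% in females and 18.2% in males at Day 2. Between the sexes it called 2.71%, 5.12% and 6.97% on those days. For the other fits that follow, the share of all genes is not set beside these counts. The fit over 8 groups called 4 in females at Day 2 and Day 5, 2 in males at Day 2, 1, 1 and 5 between the sexes at Day 0, Day 3 and Day 5, and 1 interaction at Day 5. The added fold threshold left 1 and 0 in females at Day 3 and Day 5, 0, 1 and 3 in males, and 0 and 1 between the sexes at Day 2 and Day 3. No filter gave 1 and 2 in females at Day 2 and Day 5 and 2 between the sexes at Day 2. At least 10 counts per library gave 2 in males at Day 2, and DESeq2 size factors 1 in females at Day 3. The short-gene covariate gave 0 in females at Day 3, 0 in males at Day 2 and 1 between the sexes at Day 0. Leaving out female Day 0 mice 1 to 3 gave 0 in females at Day 3.

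Leaving out 1 mouse gave 0 to 3, 0 to 5 and 0 to 4 in females, 0 to 5, 1 to 6 and 1 to 7 in males, 0, 0 to 2, 5 to 7 and 0 to 4 between the sexes, and 0, 0 and 0 to 3 interactions. Of 168 such values of called genes, 103 kept the call and all kept their sign. The replicate numbers were not taken to pair the mice, which were separate animals. In no comparison did all 4 pairs correlate over 0.1, a rule that cannot tell whether same-numbered libraries were handled together. Between the sexes at Day 0, 3 of 4 pairs did (0.27, 0.44 and 0.48), and 3 mice correlated best with their own number. At Day 0 the short-gene share was highest in mouse 3 (20.4% in males, 18.7% in females) and lowest in mouse 4 (9.37% and 7.33%). Mouse 4 also had the highest mitochondrial share of Day 0 in each sex (24.0% and 19.7%). The replicate block gave 0, 0 and 2 calls in males at Day 2, Day 3 and Day 5, 0 in females at Day 3 and Day 5, and left the sex differences at 0, 1, 6 and 0. By the median in place of the mean, 6 to 10 of 10 genes kept their place in the order of levels. In simulated counts the interaction test recovered 58 of 100 genes at a log2 change of 2, so smaller sex differences could be missed.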
